A study of Mus musculus with 2 samples.

Results

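The genes described here are cyclins and kinases of the meiotic divisions, followed by symbol through single germ cells of mouse testis. The list holds 10 symbols: the cyclins Ccna1, Ccna2, Ccnb1, Ccnb2 and Ccnb3, and Cdk1, Aurka, Aurkc, Plk1 and Cdc25c. The deposited list of symbols is shorter than the count matrix, so a symbol was used only where it could stand for 1 row of the matrix. That held for 4 of the 10 genes, Ccna1, Ccnb2, Aurka and Aurkc, and for 5476 of all 25065 symbols. The other 6 had 4 possible rows (Cdk1) to 13 (Ccnb3) and were not analysed here. Without the rule that only rows seen in fewer than 5 cells lack a symbol, Aurkc alone keeps 1 possible row. Ccnb2 and Aurka then have 2 each and Ccna1 has 13, so the values of these 3 genes rest on that rule.

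The cells came from whole testes of male C57BL/6N mice aged 10 to 12 weeks, dissociated with collagenase I. There were 2 libraries, WT and Tex13a-KO, each pooled from 3 testes of 3 mice, and the KO animals lacked both exons of the X-linked gene Tex13a after CRISPR/Cas9 editing. With 1 library per genotype no test is possible, and the genotype and the library cannot be told apart. The symbol Tex13a has several possible rows, so the deletion was not checked here.

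Cyclins are the regulatory subunits that switch on cyclin-dependent kinases, and Cdk1 bound to A-type or B-type cyclins drives entry into both meiotic divisions. Ccna1 encodes cyclin A1, an A-type cyclin found mainly in male germ cells, where it is needed to leave prophase of the first division. Ccnb2 encodes cyclin B2, a B-type partner of Cdk1. Aurka encodes Aurora A, a kinase of the spindle poles, and Aurkc encodes Aurora C, a germ cell kinase of the chromosomal passenger complex that corrects the attachment of chromosomes to the spindle.

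Promoters of many genes of the division phases carry CCAAT boxes, the element bound by the factor NF-Y, and the cell cycle homology region, written TTTGAA or TTCGAA. The stretches of Ccna1, Ccnb2 and Aurka are shown because these promoters differ in the number of CCAAT boxes just before the start. Each runs from 120 bases before the RefSeq transcription start to 10 bases from it, on the strand of the gene, and capitals mark CCAAT on either strand (ATTGG on the opposite one) and TTTGAA.
Ccna1, chr3:55055046-55055175, minus strand: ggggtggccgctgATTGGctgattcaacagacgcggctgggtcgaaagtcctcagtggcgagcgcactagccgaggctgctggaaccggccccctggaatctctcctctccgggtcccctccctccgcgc
Ccnb2, chr9:70421545-70421674, minus strand: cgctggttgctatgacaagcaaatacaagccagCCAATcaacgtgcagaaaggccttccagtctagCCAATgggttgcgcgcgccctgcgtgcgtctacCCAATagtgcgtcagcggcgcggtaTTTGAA
Aurka, chr2:172370561-172370690, minus strand: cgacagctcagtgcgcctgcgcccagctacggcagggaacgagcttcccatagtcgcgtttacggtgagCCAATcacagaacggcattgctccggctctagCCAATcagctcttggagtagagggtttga

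These sequences are from RefSeq on GRCm38.p6, the build that mm10 also names. Ccnb2 had 3 CCAAT boxes, beginning 87, 54 and 21 bases before the start, and TTTGAA both 167 bases before the start and at base 5 after it. Aurka had 2, beginning 51 and 19 bases before the start, and TTTGAA at base 33. Ccna1 had a single ATTGG, 107 bases before the start, and no TTTGAA. Its RefSeq start, at 55055055, lies inside the gene as GENCODE annotates it (up to 55055501 on the minus strand). Its matches therefore refer to the RefSeq start only. Aurkc (RefSeq start at 6995385 on chromosome 7, plus strand) had ATTGG at base 25 after the start and no CCAAT box before it. Its stretch is not printed because most of it lies in an annotated exon. Among all 32851 promoters of the table, each of 300 bases, 37.4% held CCAAT on either strand, 11.7% held at least 2, 3.37% held at least 3, and 17.9% held TTTGAA. Neither TTCGAA (1.56% of all promoters) nor the cAMP response element TGACGTCA (1.79%) was found in any of the 4. AACNG, the core of MYB sites, was found in Ccna1, Aurka and Aurkc and not in Ccnb2, but 80.3% of all promoters hold it. These matches describe letters and not bound sites.

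In the GENCODE vM21 annotation of GRCm38, Ccna1 (ENSMUSG00000027793.6) lies on the minus strand of chromosome 3 from 55045469 to 55055501. Ccnb2 (ENSMUSG00000032218.7) lies on the minus strand of chromosome 9 from 70407692 to 70421547, and Aurka (ENSMUSG00000027496.15) on the minus strand of chromosome 2 from 172356190 to 172370535. Aurkc (ENSMUSG00000070837.5) lies on the plus strand of chromosome 7 from 6995300 to 7003091.

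The WT library held 45568532 UMIs (unique molecular identifiers, 1 per counted transcript) in 5170 cells and the KO library 67734689 in 7238 cells, and no barcode was shared. The authors sorted the cells into 13 clusters, with spermatogonia (Sg), spermatocytes (Sc1, Sc2), a mixed cluster of spermatocytes and early spermatids (Sd1) and spermatids (Sd2 to Sd10). Sd1 made up 9.92% of WT and 14.6% of KO cells, and Sc2 9.44% and 12.4%. Levels are given as CPM, the UMIs of a gene scaled to a common total for each library and cluster, WT first, and intervals are 95% intervals that cover counting error only. The cluster names were set against lists of marker genes. The 10 usable spermatocyte markers of 11 summed to 13560 and 13104 CPM in Sc2, 10177 and 10073 CPM in Sd1 and 9529 and 9323 CPM in Sd2. Ldhc, which stays high in spermatids, gave most of these sums (7320 and 7543 CPM in Sc2, 8341 and 8052 CPM in Sd1, 8186 and 7848 CPM in Sd2), so they do not separate Sd1 from Sd2. The 8 round spermatid markers of 8 summed to 91.6 and 56.7 CPM in Sc2, 109 and 95.6 CPM in Sd1 and 1360 and 1298 CPM in Sd2. The 4 usable spermatogonia markers of 8 summed to 1831 and 1577 CPM in Sg and to 7.19 and 3.52 CPM in Sd1. Kit, Uchl1 and Crabp1 were highest in Sg. Stra8 was higher in Sc1 (4287 and 4453 CPM) than in Sg (850 and 757 CPM), so the sum of this list does not single out Sg. The 10 elongating spermatid markers of 10 summed to 303502 and 298380 CPM in Sd8 but also to 41826 and 41653 CPM in Sg, so transcripts of late spermatids were also counted in spermatogonia, and the part of such RNA in the levels below was not tested. Of markers of somatic cells, Leydig cells had 1 usable gene of 5 (1.89 and 2.62 CPM in Sd1), peritubular, endothelial and blood cells 3 of 8 (95 and 57.8 CPM in Sc2, 1.89 and 2.78 CPM in Sd1), and Sertoli cells 0 of 7. Nearly all of the 95 and 57.8 CPM in Sc2 came from 1 gene, Hbb-bs (94.5 and 57.8 CPM). Hbb-bs also differed widely between the libraries elsewhere, with 3.13 and 384 CPM in Sd8.

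All 4 genes were highest in Sd1, in WT and in KO. Of 5020 usable genes, those with 100 UMIs or more, 667 (13.3%) were highest in Sd1 in both libraries. The clusters were made from these same cells, genes included, so the course over clusters is a description.

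Ccna1 was low in the early germ cells, at 32.3 and 26.2 CPM in Sg and 20.6 and 13.4 CPM in Sc1. It was 126 and 143 CPM in Sc2, 498 and 480 CPM in Sd1 and 363 and 346 CPM in Sd2. It then stood at 169 and 161 CPM in Sd3 and at 46.1 and 35.1 CPM in Sd4. From Sd5 to Sd10 it lay between 7.30 CPM (Sd5, WT) and 24.3 CPM (Sd9, KO). In both libraries the order was Sd1, Sd2, Sd3, Sc2, Sd4, with counting intervals that did not overlap between neighbours, while Sd4 and Sg did overlap.

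Ccnb2, the B-type cyclin, was already counted in spermatogonia, at 147 and 173 CPM in Sg and 143 and 146 CPM in Sc1. Its level was 288 and 257 CPM in Sc2, 578 and 523 CPM in Sd1, 460 and 442 CPM in Sd2, 372 and 340 CPM in Sd3 and 185 and 169 CPM in Sd4. In Sd5 16.8 and 13.5 CPM were counted, and from Sd6 on it was at most 14.5 CPM. Sd1, Sd2, Sd3 and Sc2 followed each other without overlap of the intervals in both libraries. In WT, Sd4 came next and did not overlap Sg, while in KO the intervals of Sg, Sd4 and Sc1 overlapped. The other row that Ccnb2 could stand for without the rule was also highest in Sd1, at 175 and 168 CPM.

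Aurka, the spindle pole kinase, was counted at 67.6 and 76.6 CPM in Sg and at 26.4 and 62.7 CPM in Sc1. It was 154 and 163 CPM in Sc2, 440 and 389 CPM in Sd1, 281 and 271 CPM in Sd2, 88.8 and 78.6 CPM in Sd3 and 24.9 and 16.2 CPM in Sd4. From Sd5 on it was at most 9.54 CPM. Sd1, Sd2, Sc2 and Sd3 stood apart from each other in both libraries, and Sd3 overlapped Sg. The other row possible for Aurka without the rule was highest in Sd3, at 371 and 347 CPM, so the course of Aurka depends on the rule more than that of Ccnb2. For Ccna1, with 13 possible rows without the rule, no course of another row is given here.

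Aurkc, the germ cell Aurora kinase, was near its highest level already in Sc2. It stood at 12.2 and 9.67 CPM in Sg and at 4.90 and 2.67 CPM in Sc1, with 5 and 2 UMIs in the latter. In Sc2 it was 80.5 and 90.9 CPM, close to the 95.9 and 99.5 CPM of Sd1. The intervals of Sc2 and Sd1 overlapped in KO, and in WT they were apart by less than 1 CPM. It then stood at 65.7 and 62.0 CPM in Sd2, 41.1 and 39.4 CPM in Sd3 and 18.3 and 17.4 CPM in Sd4, and at no more than 4.75 CPM afterwards.

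**Figure D1:**
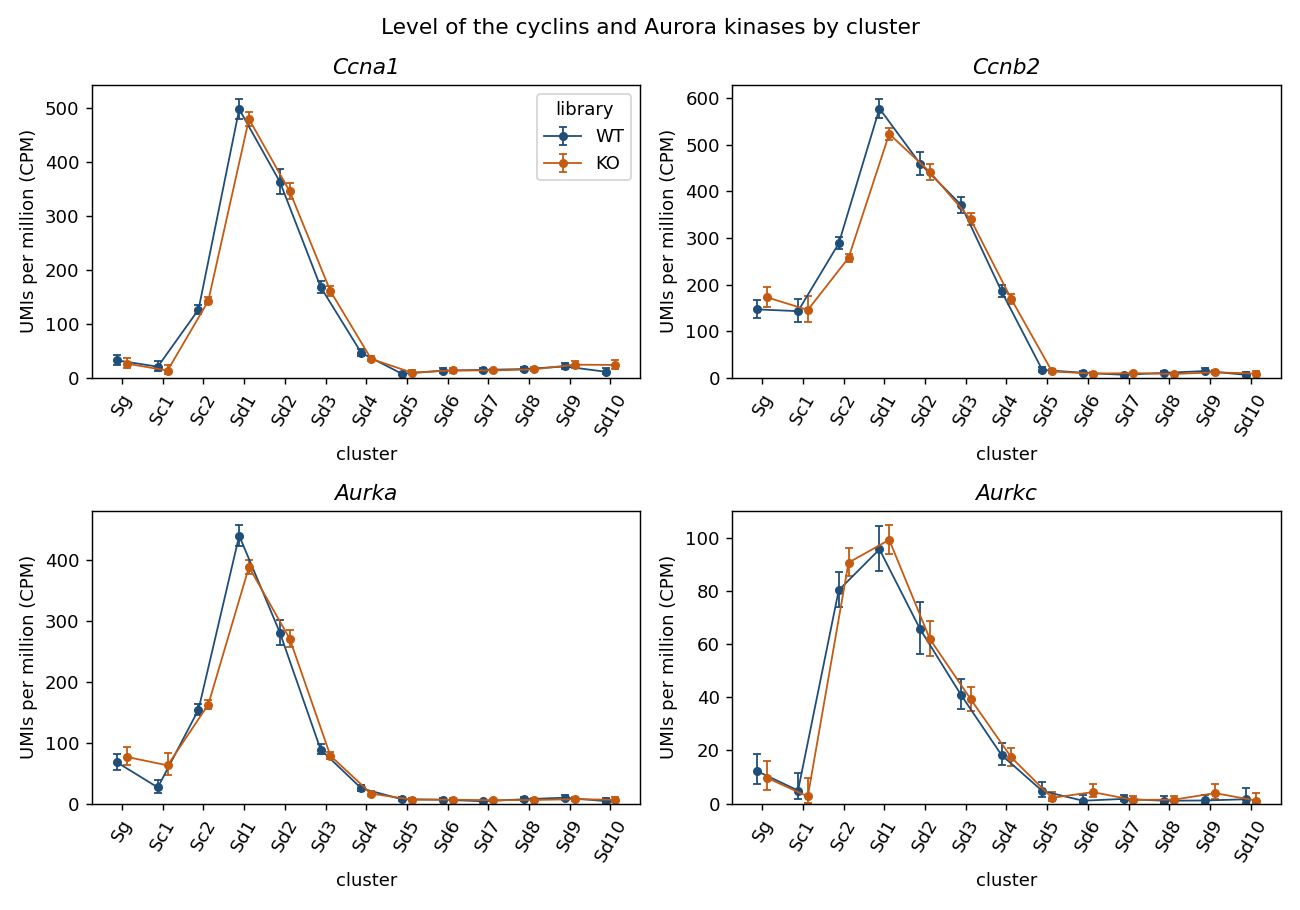
Level of Ccna1, Ccnb2, Aurka and Aurkc (y axis, CPM, linear and with its own scale in each panel) by cluster (x axis) in the WT library (blue) and the KO library (orange), with exact Poisson 95% intervals as bars. Each curve tops in Sd1, and the values of both libraries lie close to each other.

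Set against its own level in Sd1, each gene had its own course. In Sc2, Ccna1 was at 25.4% (WT) and 29.7% (KO) of its Sd1 level, Aurka at 35.1% and 41.8%, Ccnb2 at 49.9% and 49.2%, and Aurkc at 83.9% and 91.4%. In Sd3, Aurka was down to 20.2% in both libraries and Ccna1 to 33.8% and 33.5%, while Aurkc was at 42.8% and 39.6% and Ccnb2 at 64.3% and 65.0%. In Sd4 the values were 5.65% and 4.17% for Aurka, 9.25% and 7.31% for Ccna1, 19.0% and 17.5% for Aurkc, and 32.1% and 32.2% for Ccnb2. Ccna1 had the lowest share of its Sd1 level in Sc2, Aurka the lowest in Sd3 and Sd4, and Ccnb2 the highest in Sd3 and Sd4. This order was the same in both libraries. In Sd8, the range was from 1.09% for Aurkc in WT to 3.26% for Ccna1 in KO.

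**Figure D2:**
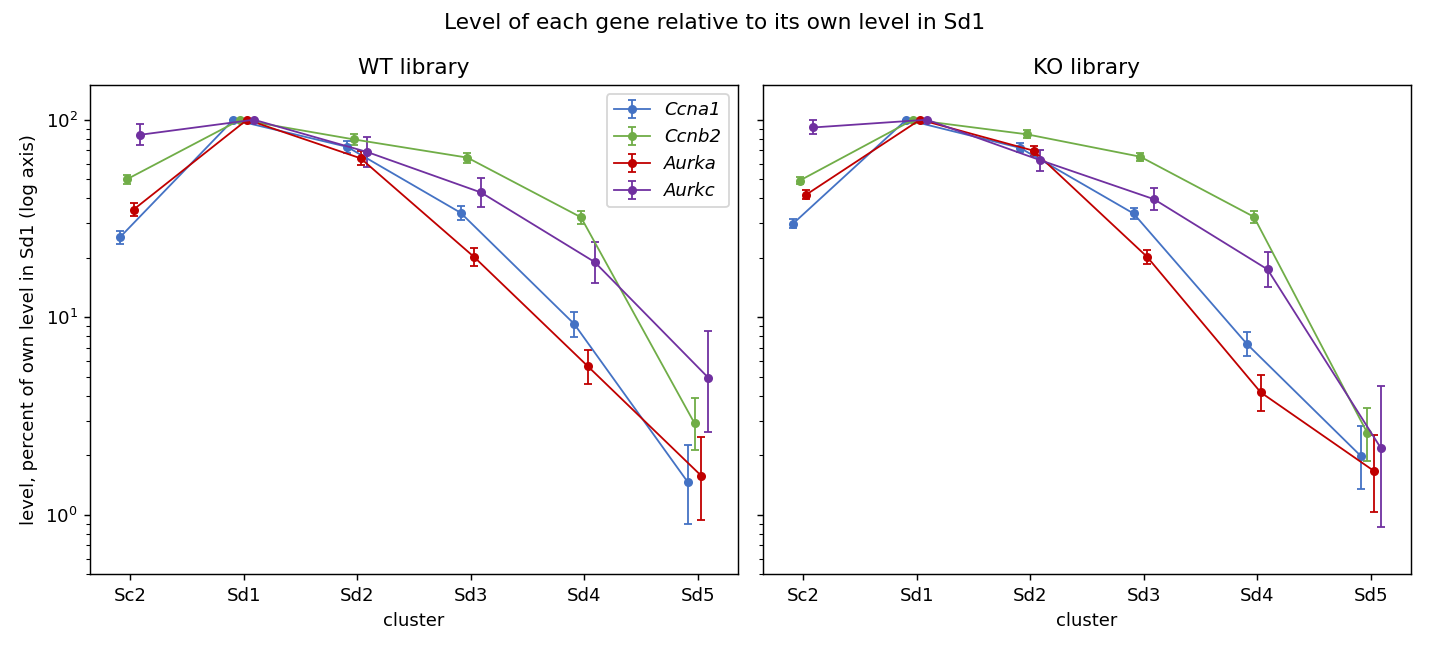
Level of each gene as a percent of its own level in Sd1 (y axis, log scale) from Sc2 to Sd5 (x axis), WT on the left and KO on the right, with exact conditional binomial 95% intervals as bars. In Sc2 Aurkc is nearest to its Sd1 level (83.9% and 91.4%) and Ccna1 farthest (25.4% and 29.7%), and in Sd4 Ccnb2 is highest (32.1% and 32.2%) and Aurka lowest (5.65% and 4.17%).

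The transcripts of Ccna1, Ccnb2 and Aurka were spread over most cells of Sd1, and those of Aurkc over fewer. At their own depth (medians of 7196 and 8647 UMIs), 94.7% of WT and 95.5% of KO cells of Sd1 had a UMI of Ccna1, 97.5% and 97.3% of Ccnb2, 93.4% and 92.1% of Aurka, and 48.9% and 56.8% of Aurkc. With each cell thinned to 3000 UMIs, which left out no cell, the shares in Sd1 were 78.9% and 74.4% for Ccna1, 83.4% and 78.4% for Ccnb2, 72.1% and 67.7% for Aurka, and 24.2% and 24.0% for Aurkc. In Sd8, the late spermatid cluster used as a measure of background (median depths of 5254 and 5269.5 UMIs), the thinned shares were 4.05% and 4.21% for Ccna1, 3.88% and 2.04% for Ccnb2, 1.94% and 1.53% for Aurka, and 0.485% and 0.765% for Aurkc. The shares in Sd1 were thus far above this background for each gene. From Sd5 on, the largest share was that of Ccna1 in Sd10 of KO, 7.55%, and no expression was read from these shares. Aurkc had no UMI in the thinned cells of WT Sd10 (184 cells, which allows a share of up to 1.98%, Clopper-Pearson), KO Sc1 (99 cells, up to 3.66%) and KO Sd5 (354 cells, up to 1.04%). These limits hold for cells with a UMI among 3000, since at their own depth 2, 2 and 6 of these cells had one.

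Sc2 was uneven among cells. At their own depth 45.9% of its WT cells and 47.5% of its KO cells had a Ccna1 UMI, but single cells held up to 53 and 62. The variance of the Ccna1 count over cells was 8.94 and 8.59 times its mean there, against 4.80 and 5.16 times in Sd1. For Ccnb2, found in 90.0% and 90.5% of Sc2 cells, the ratio was 3.87 and 3.56 in Sc2 and 4.64 and 4.84 in Sd1. Depth differs among cells, and after thinning the ratio for Ccna1 was 1.69 and 1.48 in Sc2 and 1.02 and 1.05 in Sd1. For Ccnb2 the thinned ratio was 0.924 and 1.05 in Sc2.

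In Sc2, cells with a Ccna1 UMI more often held a UMI of Aurka, and also more often one of Aurkc, each kinase counted on its own. After thinning, Aurka was found in 49.0% of 104 WT cells with Ccna1 (39.1% to 59.0%) and in 25.8% of the 384 others (21.5% to 30.5%). In KO it was found in 50% of 220 cells with Ccna1 and in 27.1% of 676 others. Aurkc was found in 32.7% of the WT cells with Ccna1 against 12.8% of the others, and in KO in 32.7% against 17.0%. Ccnb2 did not follow this pattern in WT, with 56.7% of cells with Ccna1 and 57.8% of the others, and was at 61.4% and 50.7% in KO. Between the kinases the libraries differed: Aurka was found in 48.2% of WT cells with Aurkc and 27.2% of the others, but in 33.2% and 32.6% in KO. Cells of 1 library are not replicates, so these shares describe the libraries.

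Markers of meiotic prophase were found less often in the same Sc2 cells. Piwil1, a PIWI protein that binds pachytene piRNAs, was found in 58.7% of WT cells with Ccna1 and in 78.6% of the others, and in KO in 50.9% and 76.3%. Sycp1, which builds the central part of the synaptonemal complex, was found in 56.7% and 88.0% in WT and in 54.1% and 83.9% in KO. The gaps were smaller for Hormad1 (71.2% and 88.3% in WT, 80.5% and 90.7% in KO) and Sycp3 (78.8% and 91.7% in WT, 88.6% and 93.3% in KO), and the intervals of Sycp3 overlapped in KO. The spermatid marker Acrv1 was rare in both kinds of cell, at 1.92% and 3.65% in WT and 1.82% and 3.55% in KO.

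In Sd1 the pattern was not that of Sc2. Piwil1 was found in 13.8% of WT cells with Ccna1 and in 13.9% of the others, and in KO in 13.9% and 13.3%. Aurka was found in 73.8% and 65.7% in WT and in 68.1% and 66.8% in KO. Aurkc was less frequent in WT cells with Ccna1, at 21.5% of 405 (17.6% to 25.8%) against 34.3% of 108 (25.4% to 44.0%), while KO had 24.7% and 22.1%. Ccnb2 was found in 84.0% and 81.5% in WT and in 80.7% and 72.0% in KO.

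Counting how many of the 4 genes a thinned cell showed, the most frequent number was 1 in Sc2 (42.8% of WT and 38.7% of KO cells), 3 in Sd1 (49.5% and 39.6%) and 2 in Sd2 (44.9% and 41.4%). All 4 were found in 9.36% and 10.5% of Sd1 cells and in 2.46% and 2.12% of Sc2 cells. None was found in 0.780% and 1.51% of Sd1 cells, in 22.5% and 22.8% of Sc2 cells and in 90.8% and 91.6% of Sd8 cells.

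**Figure D3:**
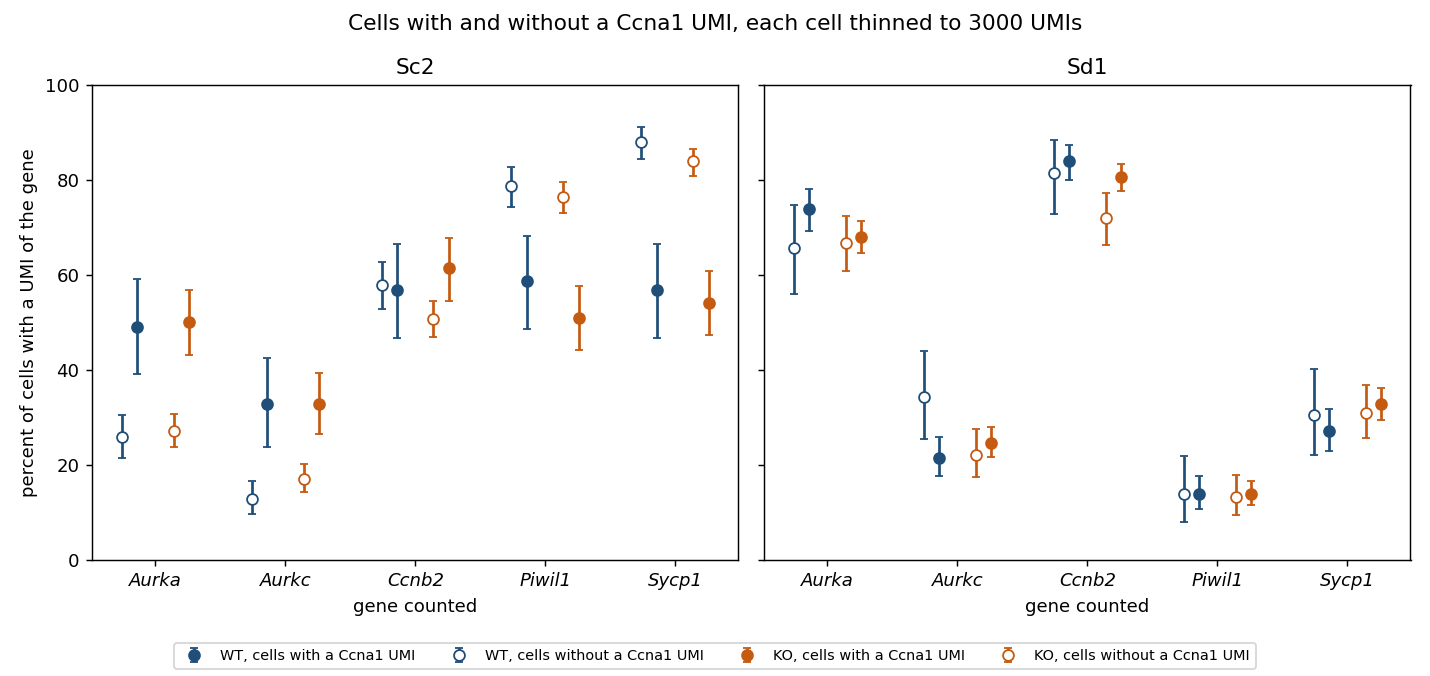
Percent of thinned cells with a UMI of the gene on the x axis, among cells with a Ccna1 UMI (filled) and without one (open), in Sc2 (left) and Sd1 (right), WT in blue and KO in orange, with exact binomial 95% intervals as bars. In Sc2 Aurka and Aurkc are found more often and Piwil1 and Sycp1 less often in cells with Ccna1 in both libraries, while in Sd1 Piwil1 and Sycp1 are found about as often in both kinds of cell and Aurkc is less frequent in WT cells with Ccna1.

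KO was compared with WT in each cluster on its own, and the ratios describe the libraries, since genotype and library cannot be told apart. A gene was read in a cluster with at least 10 UMIs in both libraries together, which held for 50 of the 52 pairs of gene and cluster. The log2 ratios of CPM, KO over WT, were small where the genes are high: in Sc2, Sd1, Sd2 and Sd3 all 16 lay between -0.18 and 0.18. The interval excluded 0 in 12 of the 50, 5 above and 7 below, and these intervals hold no variation between mice. Over all genes read, the interval excluded 0 for 17.4% in Sg, 13.4% in Sc1, 39.7% in Sc2, 27% in Sd1, 24.9% in Sd2, 27.3% in Sd3, 28.6% in Sd4, 18.1% in Sd5, 17.2% in Sd6, 23.2% in Sd7, 19.9% in Sd8, 21% in Sd9 and 20.2% in Sd10, so such intervals were common among all genes.

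Ccna1 was higher in KO in Sc2 (0.17, interval 0.06 to 0.29) and lower in Sd4 (-0.39, -0.68 to -0.11), with -0.05 in Sd1 (-0.12 to 0.01). With each cell given equal weight, its ratio in Sc2 was 0.07. Ccnb2 was lower in KO in Sc2 (-0.16), Sd1 (-0.14), Sd3 (-0.13) and Sd4 (-0.14), each with an interval below 0. Aurka was lower in Sd1 (-0.18, -0.25 to -0.11) and in Sd4 (-0.62, -1.03 to -0.21), from 109 and 97 UMIs in the latter. With each cell thinned to 3000 UMIs, in 1 random draw, the ratios in Sd4 were -1.16 for Ccna1 and -1.13 for Aurka. Aurkc was higher in Sc2 (0.18, 0.03 to 0.32) and stood at 0.05 in Sd1 (-0.10 to 0.21; -0.07 with thinned cells).

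Other genes differed in the same clusters. In Sc2 some spermatocyte markers were lower in KO, Sycp1 (1366 and 1000 CPM), Piwil1 (532 and 441 CPM), Tex101 (850 and 599 CPM) and Meiob (34.0 and 21.1 CPM). Sycp2 (log2 ratio -0.02), Sycp3 (-0.02) and Spo11 (-0.05) hardly differed, with intervals that included 0. Pgk2 (185 and 223 CPM), Hormad1 (926 and 966 CPM) and Ldhc were higher. Of the 10 spermatocyte markers, 3 were higher in KO in Sc2, with a median log2 ratio of -0.04. All 8 round spermatid markers were lower in KO in Sc2, with a median log2 ratio of -0.64. In Sd1, 7 of the 10 spermatocyte markers were higher in KO (median 0.04), among them Hormad1 (274 and 358 CPM, log2 ratio 0.38) and Sycp3 (441 and 511 CPM, 0.21), which differed by more than Ccnb2 or Aurka did. In Sd1 the elongating spermatid markers summed to 7964 CPM in WT and 7187 CPM in KO, and the median depth per cell was 7196 and 8647 UMIs. The part of these differences in the ratios of the 4 genes was not tested, and the level per cell and the mix of cells inside a cluster cannot be told apart.

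A ratio of 2-fold or more occurred in 5 of the 50, each in a cluster where the gene was low. Those in Sd5, Sd6, Sd9 and Sd10 lie in clusters where no expression was read from the shares of cells above. Aurka was higher in KO in Sc1 (log2 ratio 1.23, 0.53 to 1.99), from 27 and 47 UMIs. Ccna1 was higher in KO in Sd10 (1.07, 0.19 to 2.08), from 14 and 42 UMIs, but fell under 2-fold with the mean of single-cell CPM (0.78), without the 5% of cells with most UMIs (0.86) and with a prior of 10 UMIs (0.91). Aurkc stood at -1.08 in Sd5 (13 and 7 UMIs, -2.70 to 0.29), 1.88 in Sd6 (3 and 13 UMIs, 0.18 to 4.50) and 1.62 in Sd9 (3 and 10 UMIs, -0.18 to 4.27). Among all genes read with 1 possible row, the share at 2-fold or more was 3.99% in Sg, 4.94% in Sc1, 3.56% in Sc2, 2.38% in Sd1, 2.62% in Sd2, 1.85% in Sd3, 2.14% in Sd4, 4.07% in Sd5, 4.23% in Sd6, 4.46% in Sd7, 4.07% in Sd8, 7.22% in Sd9 and 9.44% in Sd10. None of the 4 genes was past 2-fold in Sg, Sc2, Sd1, Sd2, Sd3, Sd4, Sd7 or Sd8 with cells at their own depth, while Ccna1 and Aurka were past it in Sd4 with thinned cells (-1.16 and -1.13).

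**Figure D4:**
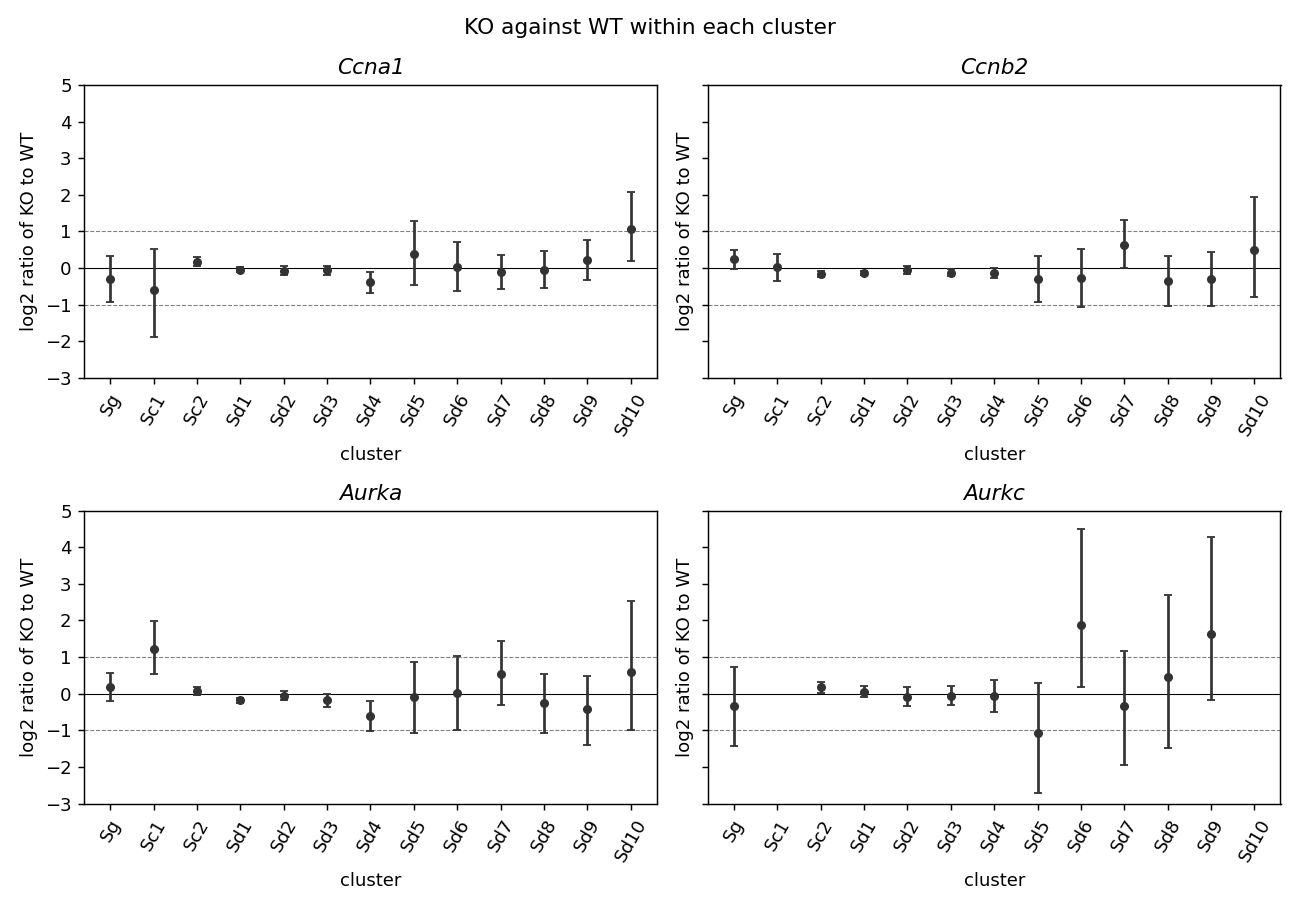
Log2 ratio of KO to WT (y axis) by cluster (x axis) for the 4 genes, with exact conditional binomial 95% intervals as bars and dashed lines at 2-fold. Points from Sc2 to Sd3 lie between -0.18 and 0.18, and intervals are wider where a gene had few UMIs.

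The median of the genes was 0.12 in Sc2 against -0.05 over all genes read, -0.10 against -0.02 in Sd1, -0.06 against -0.02 in Sd2, -0.10 against -0.01 in Sd3 and -0.26 against -0.02 in Sd4. In Sd2, Sd3 and Sd4 all 4 genes were lower in KO, and over all genes read 47%, 47.4% and 46.1% were higher in KO. With thinned cells, in 1 random draw, Aurkc was higher in KO in Sd2 (0.07) and Sd4 (0.64) and Ccna1 was at 0.01 in Sd3. The shared direction did not hold in that draw, which keeps few UMIs. Aurkc was then found in 12 WT and 24 KO cells of Sd4. Median depths before thinning were 6603 and 6698 UMIs in Sd2, 7179 and 7625 in Sd3 and 8976 and 8911 in Sd4. With the mean of single-cell CPM, Aurkc was at 0.04 in Sd3 and 0.17 in Sd4. Over whole libraries the picture was the opposite: Ccna1 stood at 129 CPM in WT and 169 CPM in KO, Ccnb2 at 210 and 242 CPM, Aurka at 110 and 138 CPM and Aurkc at 35.1 and 47.1 CPM. The share of Sd1 cells was 9.92% and 14.6%, and Sd1 gave 44.7% and 51.2% of the UMIs of Ccna1, 31.9% and 39.1% of Ccnb2, 46.6% and 50.9% of Aurka and 31.7% and 38.1% of Aurkc.

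The other genes of the divisions were read in Sc1, Sc2 and Sd1, from 5 lists. Of regulators that activate or restrain Cdk1, 7 of 17 listed genes could be used. Their median log2 ratio in Sd1 was -0.03, with 2 of 6 read higher in KO. Hspa2, the testis chaperone that assembles Cdk1 with cyclin B in spermatocytes, stood at 748 and 726 CPM in Sd1 (-0.04, -0.10 to 0.01). Eif4g3, a translation factor needed to exit meiotic prophase, was at 142 and 163 CPM (0.20, 0.08 to 0.32), and Plk4, the kinase of centriole duplication, at 162 and 195 CPM (0.27, 0.16 to 0.38). Of other cyclins and Cdks, 6 of 13 could be used, with a median of -0.21 in Sd1. Spdya, the activator of Cdk2 at telomeres, stood at 464 and 518 CPM (0.16, 0.09 to 0.23). Ccnd3 (7.19 and 4.01 CPM) and Cdk16 (5.30 and 2.70 CPM) were near their floor in Sd1. Ccnd2 in Sc2, with 8 and 5 UMIs, was the only gene of the 5 lists at 2-fold in Sc1, Sc2 or Sd1 (-1.41, -3.48 to 0.28).

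Of the anaphase-promoting complex and its partners, 7 of 22 could be used, and 1 of 7 was higher in KO in Sd1, with a median of -0.05. Pttg1, the securin that holds separase inactive, was at 548 and 529 CPM in Sd1, and the subunits Anapc11 and Anapc13 were at 324 and 318 CPM and at 183 and 190 CPM. Of the spindle checkpoint and the centromere, 11 of 22 could be used, and 10 of 11 were higher in KO in Sd1, with a median of 0.13. In Sd1, Cenpe, the kinesin of kinetochores, was at 574 and 637 CPM (0.15, 0.09 to 0.21), Cenpf at 585 and 641 CPM (0.13, 0.07 to 0.19), and Cdca8, a partner of Aurora kinases in the passenger complex, at 356 and 374 CPM (0.07, -0.01 to 0.15). Of spindle assembly genes, 4 of 16 could be used and all 4 were higher in KO in Sd1, with a median of 0.19. Tpx2, which activates Aurora A, was at 153 and 187 CPM (0.29, 0.17 to 0.41), Prc1, which bundles microtubules of the central spindle, at 373 and 444 CPM (0.25, 0.17 to 0.32), and Kif2c, which shortens microtubules, at 53.3 and 58.7 CPM (0.14, -0.06 to 0.34). Over all genes read in Sd1, 45.0% were higher in KO. In Sc2, 8 of 11 checkpoint and centromere genes and 4 of 4 spindle assembly genes were higher in KO, against 41.7% of all genes. The Cdk1 regulators Cdc25a, Eif4g3 and Plk4, and Cdk16 and Spdya of the other cyclins and Cdks, were also higher there. So were Ube2c and Pttg1 of the anaphase-promoting complex and its partners, while the other genes of these lists read in Sc2 were lower in KO. In Sc1, where 52.7% of all genes were higher in KO, 7 of 11 checkpoint and centromere genes were higher (median 0.03), but all 4 spindle assembly genes were lower (median -0.21). Of the others read in Sc1, 4 of 6 Cdk1 regulators, 4 of 5 other cyclins and Cdks and 1 of 7 genes of the anaphase-promoting complex were higher in KO.

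**Figure D5:**
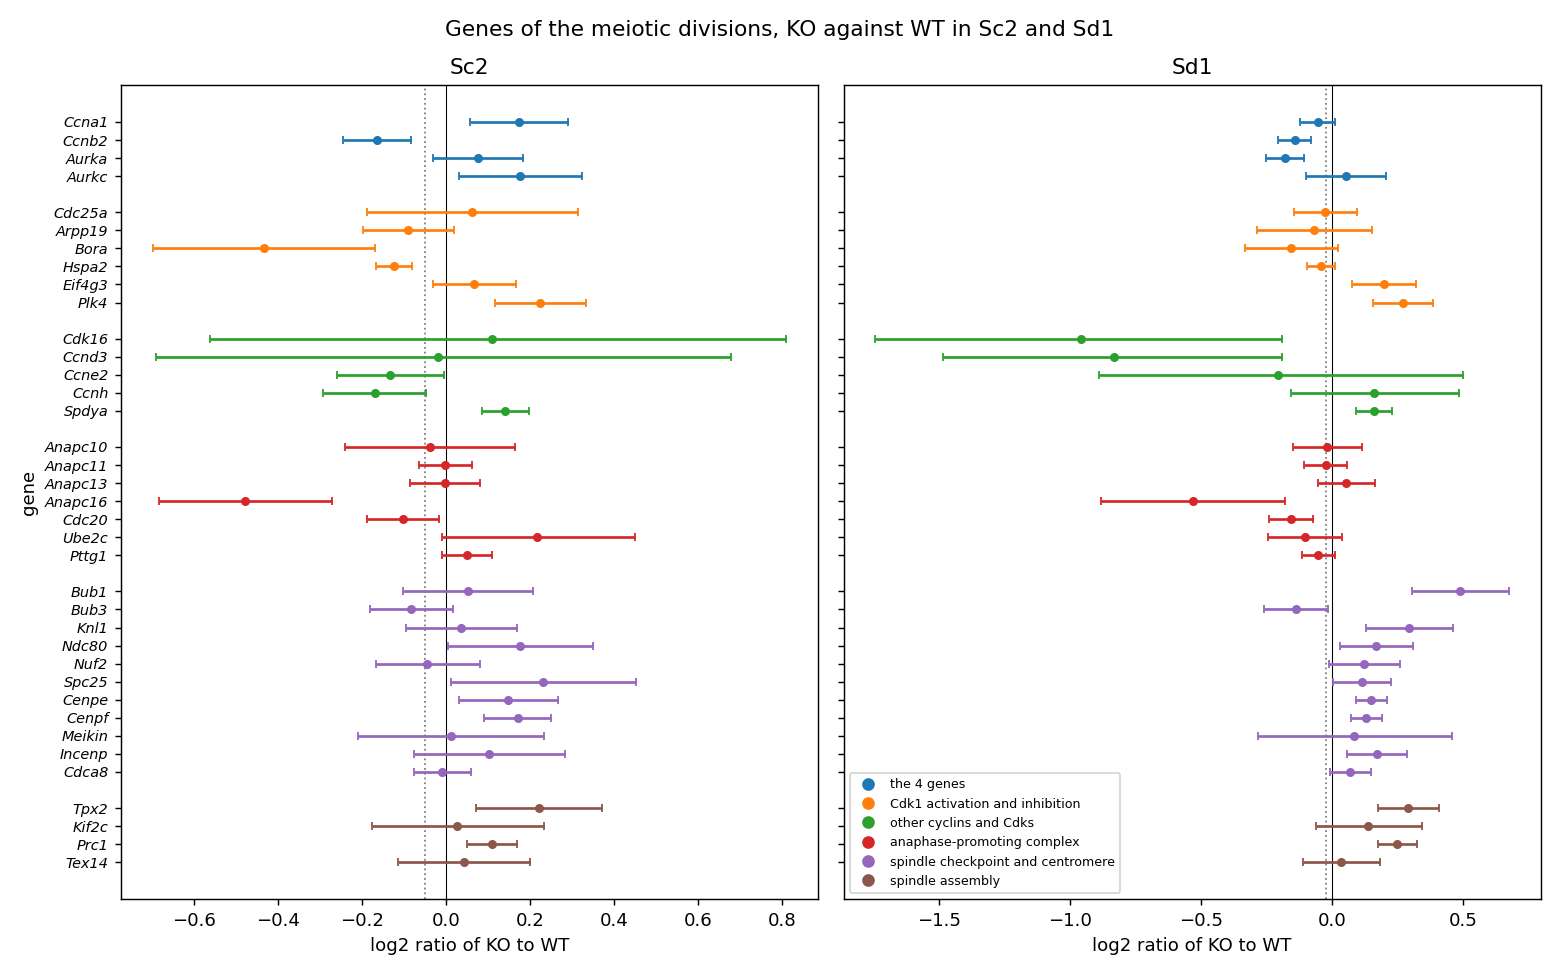
Log2 ratio of KO to WT (x axis, with its own scale in each panel) in Sc2 (left) and Sd1 (right) for the 4 genes and for the list genes read in Sd1 (y axis), coloured by list, with exact conditional binomial 95% intervals as bars and a dotted line at the median of all genes. In Sd1, 10 of 11 checkpoint and centromere genes and all 4 spindle assembly genes lie above 0, while Ccnb2 and Aurka lie below it.

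The genes of these lists did not all share the course of the 4. Of those used, 2 of 7 Cdk1 regulators (Cdc25a and Bora), 2 of 7 of the anaphase-promoting complex (Cdc20 and Pttg1) and 4 of 11 checkpoint and centromere genes (Ndc80, Nuf2, Spc25 and Cenpe) were highest in Sd1 in both libraries. None of the 6 other cyclins and Cdks and none of the 4 spindle assembly genes were. Bora is the cofactor with which Aurora A activates Plk1, and Cdc20 activates the anaphase-promoting complex. These 8 were named after their values were seen.

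The genes with the most similar course were found by Pearson's r of log2(CPM + 10) over 26 profiles, 13 clusters in each of 2 libraries, among 5020 genes. The profiles share libraries and clusters, so r is a description. For Ccna1 they were Gm45606 (r = 0.984), Cdkl1 (0.983) and Adgrl2 (0.982), for Ccnb2 they were Klhdc2 (0.996), Tomm22 (0.993) and Brd2 (0.993). For Aurka they were Rgl2 (0.986), Fam118b (0.986) and Flywch1 (0.983), and for Aurkc 4933427E11Rik (0.992), Speer2 (0.991) and Mesp1 (0.991). Of these 12, all but Cdkl1, which was highest in Sd2, were highest in Sd1 in both libraries. Among the 4 genes, r ran from 0.848 (Ccna1 and Ccnb2) to 0.949 (Ccna1 and Aurkc), so each gene had other genes closer to its course than the 3 described with it.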

How the data were processed

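Cells were captured with the GEXSCOPE microwell kit. According to the methods of the study and the submitters' processing notes, reads were checked with FastQC 0.11.7, trimmed with fastp, aligned to mm10 with STAR 2.5.3a and counted on Ensembl 92 genes with featureCounts 1.6.2, and cells were filtered and clustered with Seurat 3.2.3. The deposited matrix holds the authors' raw UMI counts, and the deposited cell table gives library, cluster, UMI count and percent of mitochondrial UMIs of each cell. It also holds the authors' sctransform score, not used here. The limits of the cell filter are not given in the sources used here. No further filter and no doublet caller was applied.

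The 30 mitochondrial symbols were placed on the rows whose UMIs give each cell's mitochondrial percent, which held exactly in 12408 of 12408 cells (line number taken as row number: 662). A row was allowed to be unnamed where under 5 cells had a UMI of it, a rule that none of the 31 intervals between placed rows contradicted. Symbols with 1 possible row hold 87.1% of WT and 86.7% of KO UMIs.

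UMIs were summed per library and cluster, with totals from 749010 UMIs (KO Sc1) to 12722633 (KO Sc2). Log2 ratios used a prior of 1 UMI over both libraries shared by depth, and genes with at least 10 UMIs were read. Intervals are exact Poisson, conditional binomial or Clopper-Pearson intervals and cover counting error only. No tests were made. The interval functions were run on simulated Poisson counts. Such counts hold no variation between cells beyond counting error, so this run could not show how the intervals fare with it. Python 3.11.15, numpy 2.4.6 and scipy 1.17.1 were used.

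The 10 genes and all lists were chosen with earlier results of these data known. Named were the 4 usable genes, list genes with at least 100 UMIs that were at 2-fold in Sc1, Sc2 or Sd1 or among the 3 of their list with most UMIs, and the 3 nearest genes of each. Alternatives were totals without mitochondrial genes, the mean of single-cell CPM, the 5% of cells with most UMIs left out, thinning, a prior of 10 UMIs, centring on the median of all genes, a minimum of 50 UMIs or none, and no rule on unnamed rows.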

Additional observations from a re-analysis of the deposited data

Results flagged for a closer look

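For 2 of the genes the ratio of KO to WT pointed in opposite directions in different clusters, with counting intervals on either side of 0. The log2 ratio of Ccna1 was 0.17 in Sc2 and 1.07 in Sd10 but -0.39 in Sd4. The log2 ratio of Aurka was 1.23 in Sc1 but -0.18 in Sd1 and -0.62 in Sd4. The difference between clusters was not tested, since there is 1 library per genotype. The values in Sc1 and Sd10 rest on few UMIs (27 and 47 for Aurka in Sc1, 14 and 42 for Ccna1 in Sd10). Sd10 is also among the clusters where no expression was read from the shares of cells. With the mean of single-cell CPM the ratio of Ccna1 was 0.07 in Sc2 and 0.78 in Sd10, and in Sd10 it was also under 2-fold without the 5% of cells with most UMIs (0.86) and with a prior of 10 UMIs (0.91).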

How the results depend on the processing

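Over 526 recomputed values, 489 stayed close to the reported value (within its counting interval, or near the same count of genes), 37 moved, and no ratio of 2-fold or more changed sign. Among smaller values, 15 of 292 recomputed ratios of single genes and 13 of 149 medians changed sign, and the reported interval of each of these 15 ratios included 0. With cells thinned to 3000 UMIs, 7 ratios of the 4 genes moved and 36 stayed. In the other settings applied to these ratios they stayed, so the pooled numbers rest largely on settings that changed them little. The number of the 10 genes with 1 possible row was 1 without the rule on unnamed rows, against 4. The median log2 ratio of the genes in Sc1, 0.03, was 0.69 with cells thinned to 3000 UMIs and 0.63 with at least 50 UMIs, where fewer genes were read. That median was below 0 with no minimum of UMIs (-0.29), with the mean of single-cell CPM (-0.06) and with centring on the median of all genes (-0.00118). With cells thinned to 2000 UMIs, the shares of Sd1 cells with a UMI were 60.8% in WT and 61.6% in KO for Ccna1, 68.2% and 62.5% for Ccnb2, 58.5% and 53.0% for Aurka, and 16% and 19.1% for Aurkc, lower because fewer UMIs were kept. With cells thinned to 3000 UMIs, the ratios in Sd4 were -1.16 for Ccna1 and -1.13 for Aurka, and the ratio of Ccna1 in Sd1 was -0.17. The ratio of Ccna1 in Sd10 fell under 2-fold with the mean of single-cell CPM (0.78), without the 5% of cells with most UMIs (0.86) and with a prior of 10 UMIs (0.91), and the cause was not tested. Depth limits Sc1, Sd10 and Sg, which hold the fewest UMIs. No paired analysis was possible because each genotype has 1 library and no replicate numbers.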
